A study of Mus musculus with 6 samples.

Results

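The genes described here are 40 cell cycle genes, 19 that act in DNA replication (S phase) and 21 that act from G2 into mitosis (G2/M), measured as messenger RNA in newborn mouse epidermis. They were taken by symbol from a list of replication and mitosis genes, and each matched 1 row of the 55487 genes in the deposited tables. There were 6 libraries, 3 labelled control and 3 labelled Znf750 cKO (written Znf750_cKO below), each from skin epidermis at postnatal day 0. Dispase freed the epidermis of back skin, trypsin turned it into a cell suspension, and its messenger RNA was sequenced. The deleted gene, listed as Zfp750 in mouse, codes for a transcription factor that promotes keratinocyte differentiation. The sources used here give neither the allele nor the Cre driver, nor the genotype of the controls, nor whether each library came from its own pup. If replicates share an animal or a preparation, the p-values below measure technical spread alone. No cell sort is named.

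The epidermis renews from its basal layer, where keratinocytes divide. Cells that leave this layer stop dividing and differentiate, so transcripts of replication and mitosis come mainly from basal cells and from the growing hair follicle. Before S phase the MCM helicase is loaded on origins, and E2F factors, freed from retinoblastoma family proteins by cyclin-dependent kinases, switch on the replication genes. From G2 on, FOXM1 and the MuvB complex with B-MYB switch on the genes of mitosis, and the same MuvB core, in the DREAM complex, keeps both sets silent in resting cells. In a bulk sample, fewer dividing cells and less RNA in each of them cannot be told apart.

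The label check came first. Zfp750 (chromosome 11, 121510978 to 121519333, minus strand, GRCm38) stood at 44.8, 32.0 and 34.9 FPKM in control replicates 1, 2 and 3 and at 0.99, 0.83 and 1.47 FPKM in Znf750_cKO replicates 1, 2 and 3, so it fell in the libraries labelled as knockout (log2 change -4.19, SE 0.17, limma adjusted p = 4.6e-05). FPKM is a level per length: fragments per kilobase, relative to all fragments mapped in that library. Among the 13688 genes that reached 1 FPKM in 3 or more libraries, 152 (1.11%) rose and 425 (3.1%) fell in limma on log2(FPKM + 1) at a Benjamini-Hochberg adjusted p under 0.05. Blocking on replicate number gave 136 higher and 256 lower genes, and after median-ratio scaling 248 rose and 265 fell. Over all tested genes the median log2 change was -0.08. Spacing of the low values put the depth at an estimated 21.4 to 35.4 M reads (megareads) per library, where 1 read on a transcript of 1 kilobase is worth 0.0283 to 0.0468 FPKM. The basal keratins marked the tissue as epidermis: Krt5 stood at 6632 ± 349 FPKM in control and 6740 ± 147 FPKM in Znf750_cKO (SD, n = 3; named after its values were seen).

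None of the 40 genes passed the threshold in either direction. As a set they lay slightly lower in Znf750_cKO, more so the G2/M genes than the S genes in their medians. The median log2 change was -0.17 for S genes and -0.27 for G2/M genes, beside -0.08 for all tested genes, and the difference between the lists was not tested. Of the 19 S genes 15 had a negative log2 change, of the 21 G2/M genes 19 did, and over all tested genes the share was 62.2%. All 40 passed the filter on low values, with mean levels from 2.27 FPKM for Cdc6 to 111 FPKM for Pcna.

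Without adjustment some members lay past the level of 0.05 in limma. Among S genes 3 (15.8%) lay lower at an unadjusted p under 0.05, close to the 15.3% of all tested genes that did so. Among G2/M genes 10 (47.6%) did. No member lay higher at that level, where 5.94% of all tested genes did. Median-ratio scaling left 2 S genes and 0 G2/M genes at an unadjusted p under 0.05. With 1 library left out the G2/M count was 4 without control replicate 1 or without Znf750_cKO replicate 3, and 7 to 9 without each of the others. Without replicate 3 of both groups it was 3. Genes of the cell cycle are not independent of each other, so these shares carry no test.

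**Figure D1:**
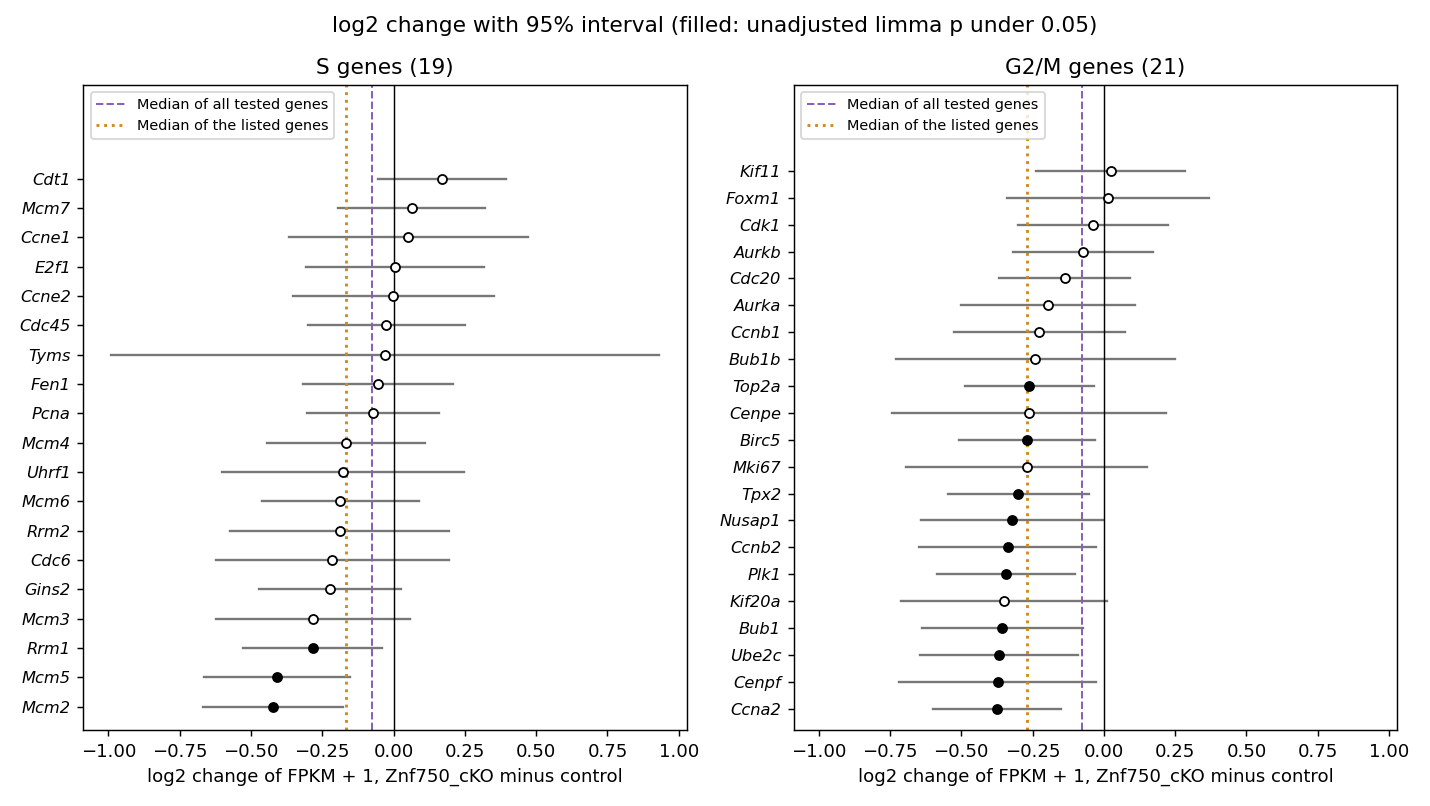
The log2 change of each S gene (left) and G2/M gene (right) in Znf750_cKO against control is a circle, with its 95% limma interval as a line, filled where the unadjusted p is under 0.05; the dotted line is the list's median and the dashed line the median of all 13688 tested genes. All 40 intervals lie between -1 and 1, the widest being that of Tyms.

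The standard error of the log2 change ranged from 0.10 to 0.39 among S genes and from 0.10 to 0.21 among G2/M genes. The 95% interval of every member lay within a log2 change of -1 to 1, and its lowest bound was -0.99 for Tyms among S genes and -0.74 for Cenpe among G2/M genes. These intervals are not adjusted for the number of genes. The largest difference of means among S genes was the 26.8% lower level of Mcm2, and among G2/M genes the 25.5% lower level of Cenpf.

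Promoters of the 2 lists were searched for short words that factors of the cell cycle are known to bind. RefSeq windows on GRCm38.p6, from 250 bases before to 50 after each annotated start, were given for 32 of the 40 genes, 16 of each list. Mcm4, Gins2, Ccne2, Ccna2, Aurkb, Kif20a, Tpx2 and Foxm1 had none. An E2F word, TTTNNCGC on either strand, was found for 8 of 16 S genes (Mcm3, Mcm5, Mcm6, Mcm7, Tyms, Cdc6, Cdt1 and Uhrf1) and for 1 of 16 G2/M genes, Cdk1. Of all 27025 genes in that table, 5.93% held it. The cell cycle genes homology region (CHR), TTTGAA on either strand, through which MuvB complexes bind, was found for 3 of 16 S genes and 11 of 16 G2/M genes, beside 20.2% of all genes. The CCAAT box, bound by NF-Y, was found for 10 of 16 S genes and 14 of 16 G2/M genes, beside 41.1% of all genes. The words were searched separately, so sites may overlap.

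The stretches before the start are shown for 5 genes, with E2F and CHR words in capitals on whichever strand they lie. Mcm2 and Mcm5 had the lowest log2 changes among S genes, Top2a and Kif11 are an abundant G2/M gene with groups apart and the G2/M gene with the highest log2 change, and Cdk1 holds both kinds of word. They lie at chr6:88898781-88898980 (minus strand), chr8:75109309-75109508 (plus strand), chr11:99024190-99024389 (minus strand), chr19:37376182-37376381 (plus strand) and chr10:69352939-69353112 (minus strand), in that order.
Mcm2: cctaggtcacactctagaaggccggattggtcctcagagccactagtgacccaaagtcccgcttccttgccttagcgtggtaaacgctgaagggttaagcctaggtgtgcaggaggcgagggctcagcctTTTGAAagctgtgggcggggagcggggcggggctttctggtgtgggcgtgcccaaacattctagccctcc
Mcm5: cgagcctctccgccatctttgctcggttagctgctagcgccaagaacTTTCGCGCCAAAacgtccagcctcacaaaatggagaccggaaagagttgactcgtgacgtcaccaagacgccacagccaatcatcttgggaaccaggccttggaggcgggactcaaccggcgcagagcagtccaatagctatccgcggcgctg
Top2a: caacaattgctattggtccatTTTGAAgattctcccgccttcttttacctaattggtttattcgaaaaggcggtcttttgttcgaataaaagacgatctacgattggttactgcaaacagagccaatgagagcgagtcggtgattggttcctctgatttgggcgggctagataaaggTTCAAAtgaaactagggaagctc
Kif11: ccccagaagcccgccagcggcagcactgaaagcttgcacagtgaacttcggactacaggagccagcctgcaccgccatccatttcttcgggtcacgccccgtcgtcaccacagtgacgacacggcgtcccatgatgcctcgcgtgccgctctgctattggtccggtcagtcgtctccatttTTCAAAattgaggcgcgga
Cdk1: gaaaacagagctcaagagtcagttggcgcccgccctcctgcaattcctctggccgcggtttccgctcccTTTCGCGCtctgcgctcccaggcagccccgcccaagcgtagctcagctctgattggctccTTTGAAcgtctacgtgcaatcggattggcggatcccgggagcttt

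In Mcm5 the E2F word occurs on both strands, starting 153 and 149 bases before the start, so that its capitals run together. In Kif11 the CHR word lies 19 bases before the start and in Top2a 179 and 23 bases before it. The Cdk1 stretch ends where an exon of another annotated transcript begins. S genes with the E2F word had a median log2 change of -0.18 (8 genes) and those without it -0.06 (8 genes). Their ranges overlapped, from -0.41 to 0.17 with the word and from -0.42 to 0.05 without it, and the difference was not tested. G2/M genes with the CHR word had a median of -0.26 (11 genes) and those without it -0.27 (5 genes). A word found in a window is a description of its letters, not of binding.

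The MCM helicase, which unwinds DNA at the fork, held the S genes with the lowest log2 changes, Mcm2 and Mcm5. Mcm2 (chromosome 6, 88883474 to 88898780, minus strand) stood at 20.6, 21.2 and 18.1 FPKM in control replicates 1, 2 and 3 and at 14.2, 14.8 and 14.9 FPKM in Znf750_cKO replicates 1, 2 and 3. The groups did not overlap, and the log2 change was -0.42 (SE 0.11, limma adjusted p = 0.068, unadjusted p = 0.0041). Mcm5 (chromosome 8, 75109569 to 75128439, plus strand) stood at 29.0, 29.2 and 24.7 FPKM in control and 21.5, 21.1 and 19.1 FPKM in Znf750_cKO, again with groups apart (log2 change -0.41, adjusted p = 0.086). The other subunits overlapped between groups. Mcm3, Mcm4 and Mcm6 had log2 changes of -0.28, -0.17 and -0.19, with Mcm6 at 45.4 ± 5.66 FPKM in control and 39.6 ± 2.79 in Znf750_cKO. Mcm7, the most abundant subunit in these libraries at 57.8 ± 1.31 and 60.7 ± 7.77 FPKM, had a log2 change of 0.06, with Znf750_cKO replicate 1 at 69.7 FPKM and the other 2 replicates at 56.4 and 56.1. Mcm7 shares exon sequence with Cops6 and Ap4m1 on the opposite strand, and strand was not stated.

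None of the 4 factors that load or start the helicase passed. Gins2, of the GINS complex that completes the active helicase, lay at 17.4, 16.1 and 17.8 FPKM in control and 14.9, 15.4 and 13.3 FPKM in Znf750_cKO (log2 change -0.22, limma adjusted p = 0.29). Cdt1, which loads MCM with Cdc6, lay the other way with groups apart: 14.3, 14.7 and 15.2 FPKM in control against 17.2, 16.6 and 16.4 FPKM in Znf750_cKO. Its log2 change of 0.17 (adjusted p = 0.37) was the highest of all 40 members. Cdc6, the lowest S gene at 2.52 ± 0.50 and 2.03 ± 0.31 FPKM, and Cdc45 at 7.49 ± 0.66 and 7.33 ± 0.22 FPKM overlapped between the groups. Across the 19 S genes the groups were apart and lower in 4 (21.1%), Mcm2, Mcm5, Rrm1 and Gins2, beside 19.7% of all tested genes. They were apart and higher in 1, Cdt1, where 8.28% of all tested genes were.

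The sliding clamp Pcna was the most abundant of the 40 genes. It stood at 114, 121 and 106 FPKM in control and 101, 114 and 109 FPKM in Znf750_cKO (log2 change -0.07, limma adjusted p = 0.75), with groups that overlapped. The interval of its log2 change ran from -0.31 to 0.16. The flap endonuclease Fen1, which trims Okazaki fragments, stood at 13.5 ± 0.46 and 13.0 ± 1.34 FPKM. Its annotated exons overlap those of Tmem258 on the opposite strand.

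None of the 3 enzymes of nucleotide supply passed. Rrm1, the large subunit of ribonucleotide reductase, lay at 38.9, 39.2 and 36.8 FPKM in control and 29.1, 35.2 and 29.8 FPKM in Znf750_cKO, with groups apart (log2 change -0.28, limma adjusted p = 0.18, unadjusted p = 0.028). Rrm2, the small subunit that sets the S phase activity of the enzyme, stood at 14.8 ± 1.85 and 12.9 ± 2.58 FPKM and overlapped. Tyms, thymidylate synthase (chromosome 5, 30058202 to 30073617, minus strand), had the widest spread of the 40. It stood at 18.6, 26.9 and 19.6 FPKM in control and 12.6, 19.96 and 36.2 FPKM in Znf750_cKO, so the third knockout library lay above every control and the first below every control. The standard error of its log2 change was 0.39, the largest of the 40.

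The genes of the G1/S switch overlapped between the groups. E2f1, the activator of S phase genes, stood at 7.42 ± 0.24 and 7.50 ± 1.1 FPKM (log2 change 0.01, limma adjusted p = 0.99). The E cyclins Ccne1 and Ccne2, which activate CDK2, stood at 2.71 ± 0.67 and 2.82 ± 0.38 FPKM and at 3.44 ± 0.23 and 3.45 ± 0.54 FPKM. Their intervals, -0.37 to 0.47 for Ccne1 and -0.35 to 0.35 for Ccne2, still allow a modest difference either way. Uhrf1, which guides DNA methylation at the fork, stood at 20.8 ± 4.28 and 18.2 ± 3.37 FPKM (log2 change -0.18, adjusted p = 0.64).

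**Figure D2:**
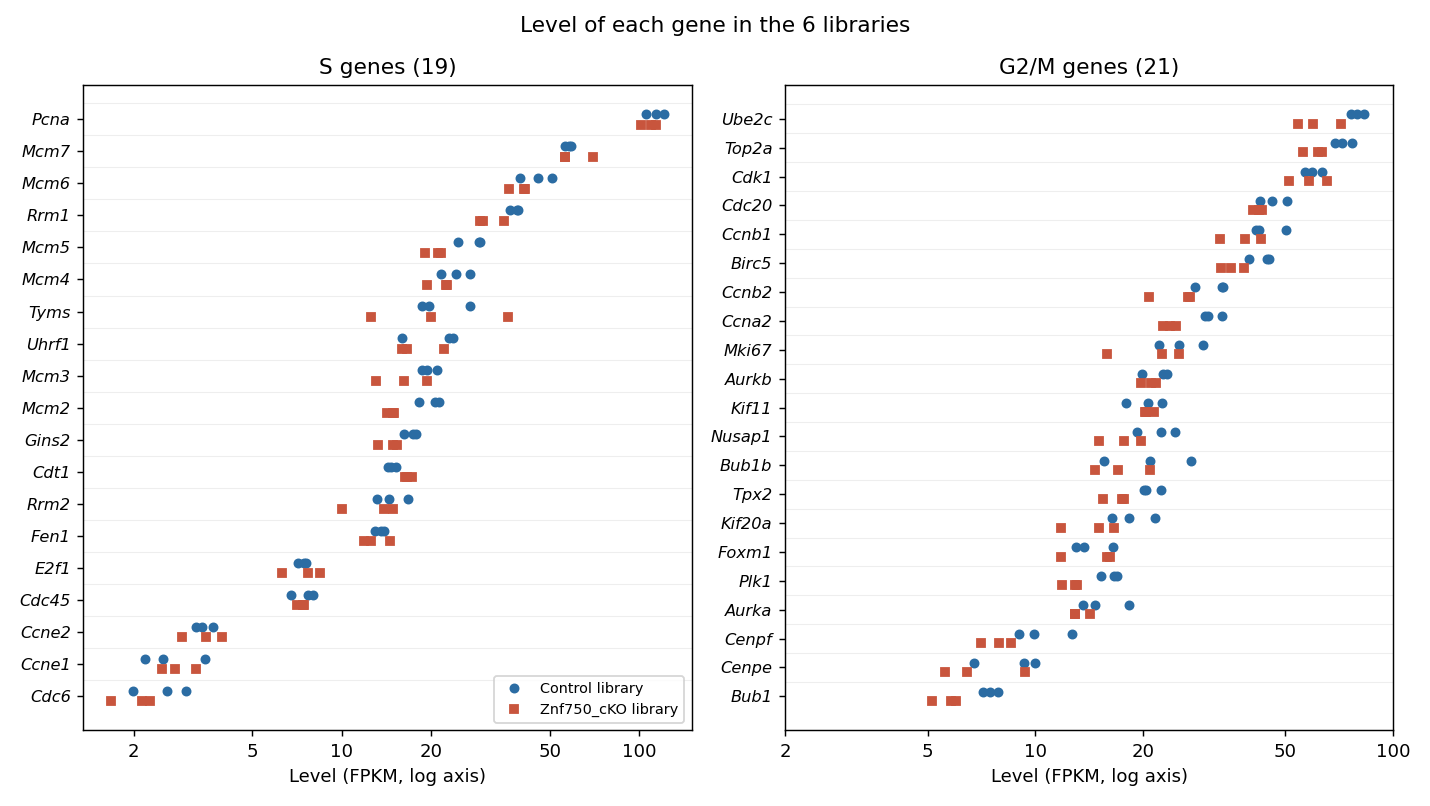
The FPKM of each S gene (left) and G2/M gene (right) in the 3 control libraries (circles) and the 3 Znf750_cKO libraries (squares) is drawn on a log axis, ordered by mean level. In Ube2c, Top2a, Ccna2 and Plk1 every square lies left of every circle, in Pcna and Cdk1 they mix, and the squares of Tyms are the most scattered.

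Of the cyclins of G2 and mitosis none passed. The groups were apart and lower in 2 of 3, beside 19.7% of all tested genes. Ccna2, cyclin A2 (chromosome 3, 36564865 to 36572150, minus strand), stood at 33.2, 30.3 and 29.8 FPKM in control and 23.7, 24.8 and 22.7 FPKM in Znf750_cKO. It had the lowest log2 change of the list at -0.37 (SE 0.10, limma adjusted p = 0.076, unadjusted p = 0.0049), with groups apart, and shares exon sequence with Exosc9 on the opposite strand. Cyclin B2, Ccnb2, lay at 33.5, 33.2 and 27.98 FPKM in control and 27.1, 26.7 and 20.9 FPKM in Znf750_cKO (log2 change -0.34, adjusted p = 0.20). Cyclin B1, Ccnb1, overlapped at 44.6 ± 4.91 and 38.1 ± 4.98 FPKM. Cdk1, the kinase these cyclins activate, stood at 63.2, 59.3 and 56.6 FPKM in control and 58.2, 65.4 and 51.3 FPKM in Znf750_cKO. Its second knockout library was its highest of all 6, and its log2 change was -0.04 (adjusted p = 0.91). Foxm1, the transcription factor of this programme, stood at 14.4 ± 1.86 and 14.6 ± 2.43 FPKM (log2 change 0.02, adjusted p = 0.97). Its annotated exons overlap those of Tex52 and Gm44596 on the same strand.

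Of the mitotic kinases Plk1, which drives entry into mitosis and spindle assembly, lay at 16.6, 16.9 and 15.3 FPKM in control and 12.9, 13.1 and 11.9 FPKM in Znf750_cKO (log2 change -0.34, limma adjusted p = 0.11). Bub1, a kinase of the spindle checkpoint, lay at 7.89, 7.46 and 7.16 FPKM against 5.83, 5.13 and 5.99 FPKM (log2 change -0.36, adjusted p = 0.15). The groups were apart in both. Its relative Bub1b overlapped at 21.2 ± 5.82 and 17.5 ± 3.18 FPKM, and the Aurora kinases Aurka and Aurkb overlapped at 15.5 ± 2.45 and 13.3 ± 0.75 FPKM and at 22.01 ± 1.84 and 20.9 ± 1.07 FPKM. Birc5, survivin, which forms the chromosomal passenger complex with Aurkb, lay at 39.5, 45.1 and 44.4 FPKM in control and 35.2, 38.3 and 33.1 FPKM in Znf750_cKO. Its groups were apart, with a log2 change of -0.27 (adjusted p = 0.19), while that of Aurkb was -0.07.

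The anaphase promoting complex marks cyclins for destruction. Ube2c, its ubiquitin-conjugating enzyme and the most abundant G2/M gene (chromosome 2, 164769898 to 164778822, plus strand), stood at 79.5, 82.6 and 76.4 FPKM in control and 59.7, 71.5 and 54.2 FPKM in Znf750_cKO. The groups were apart and the log2 change was -0.37 (SE 0.12, limma adjusted p = 0.13, unadjusted p = 0.016). Cdc20, its activator in mitosis, overlapped at 46.3 ± 3.97 and 41.9 ± 1.32 FPKM (log2 change -0.14). Exons of Cdc20 overlap those of Elovl1, and exons of Ube2c those of Tnnc2, on opposite strands.

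None of the 6 spindle genes passed, and 5 had a negative log2 change. Tpx2, which activates Aurka on the spindle, lay at 22.4, 20.3 and 20.2 FPKM in control and 17.5, 17.7 and 15.4 FPKM in Znf750_cKO (log2 change -0.30, limma adjusted p = 0.16). Cenpf, a kinetochore protein, lay at 12.7, 9.89 and 9.02 FPKM against 7.07, 7.90 and 8.56 FPKM (log2 change -0.37, adjusted p = 0.20). Both had groups apart. Kif20a, the kinetochore motor Cenpe and the microtubule binding protein Nusap1 overlapped, with log2 changes of -0.35, -0.26 and -0.32. Kif11, the motor that pushes spindle poles apart, stood at 20.4 ± 2.35 and 20.7 ± 0.61 FPKM, and its log2 change of 0.02 was the highest of the list.

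Top2a, the topoisomerase that untangles sister chromosomes, stood at 76.8, 71.8 and 68.9 FPKM in control and 63.4, 61.6 and 56.0 FPKM in Znf750_cKO, with groups apart (log2 change -0.26, limma adjusted p = 0.18). Mki67, which encodes the proliferation marker Ki-67, stood at 29.5, 22.1 and 25.1 FPKM in control and 25.3, 15.9 and 22.6 FPKM in Znf750_cKO. Its replicates varied more than those of Top2a and the groups overlapped (log2 change -0.27, adjusted p = 0.45). In all, the groups were apart and lower in 9 of 21 G2/M genes (42.9%), beside 19.7% of all tested genes, and apart and higher in 0.

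The libraries were also compared list by list. Summed over the 19 S genes, the level was 480, 500 and 439 FPKM in control replicates 1, 2 and 3 and 433, 443 and 425 FPKM in Znf750_cKO replicates 1, 2 and 3. Control replicate 3 lay below Znf750_cKO replicate 2, so the groups overlapped. Summed over the 21 G2/M genes it was 679, 609 and 608 FPKM in control and 553, 557 and 495 FPKM in Znf750_cKO, and the groups did not overlap. These sums are of FPKM as deposited, without rescaling. The factors of median-ratio scaling, by which levels are divided, were 1.036, 1.015 and 1.074 in control and 0.966, 0.913 and 1.021 in Znf750_cKO. Whether the G2/M groups stay apart therefore depends on the scaling. The mean sums were 8.22% lower for S genes and 15.4% lower for G2/M genes. The number of G2/M genes below all 3 controls was 13, 14 and 17 in Znf750_cKO replicates 1, 2 and 3, or 61.9%, 66.7% and 81.0% of the list. For S genes it was 8, 6 and 11, or 42.1%, 31.6% and 57.9%. Of all tested genes 38.2%, 44.3% and 39.6% lay below all 3 controls in those libraries. These sums describe genes chosen with earlier results of these data known and carry no p-value.

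**Figure D3:**
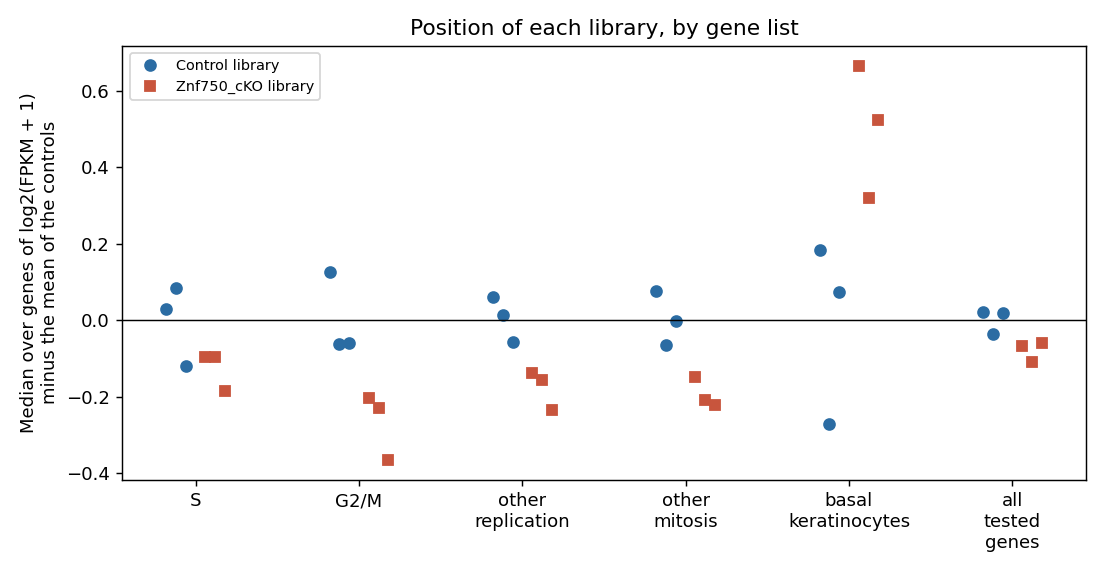
For each list, each library is placed at the median over genes of log2(FPKM + 1) minus the mean of the 3 controls, with control libraries as circles and Znf750_cKO libraries as squares. In FPKM as deposited, without rescaling, the squares lie below the circles for G2/M genes and for the other replication and mitosis genes. They also do so, by less, for all tested genes (-0.11 to -0.06 against -0.04 to 0.02). For S genes 1 control lies among the squares, and for basal keratinocyte genes the squares lie above the circles.

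Wider lists of the cell cycle gave few calls. Of 48 other replication genes none passed limma. At an unadjusted p under 0.05, 10 (20.8%) lay lower, beside 15.3% of all tested genes, and 0 higher, and the median log2 change was -0.20. The most abundant of them, Rpa3 of the single-strand binding complex, stood at 41.3 ± 5.03 and 35.9 ± 4.73 FPKM. Named after their values were seen, the DNA polymerase subunit Pola1 stood at 10.8, 14.0 and 19.3 FPKM in control and 7.90, 6.75 and 8.09 FPKM in Znf750_cKO (log2 change -0.84, adjusted p = 0.058), and the histone mRNA binding protein Slbp at 39.5 ± 2.5 and 30.2 ± 0.36 FPKM (adjusted p = 0.065).

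Of 60 other mitosis genes 2 fell, 0 rose and 58 did not pass, where 3.1% of all tested genes fell. The log2 change was negative for 56 (93.3%), beside 62.2% of all tested genes, with a median of -0.18. Kif20b, a motor of cytokinesis, fell from 14.7, 11.8 and 13.4 FPKM to 9.52, 7.44 and 6.58 FPKM (log2 change -0.70, SE 0.15, limma adjusted p = 0.048). Cenpm, a centromere protein, fell from 5.96, 7.56 and 6.82 FPKM to 4.10, 4.29 and 3.30 FPKM (log2 change -0.67, SE 0.15, adjusted p = 0.049). Both calls are marginal: each was lost in all 6 fits that leave out 1 library, and under 15 alternatives in all Kif20b passed in 2 and Cenpm in 1. With the replicate block the adjusted p was 0.0496 for Kif20b and 0.0637 for Cenpm.

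Genes that decide on entry into the cycle gave 1 call. Of 13 G1 cyclins, kinases and pocket proteins 1 rose and 12 did not pass, where 1.11% of all tested genes rose. Myc, a transcription factor that promotes growth and G1 progression, rose from 30.1, 31.0 and 48.6 FPKM to 62.0, 65.9 and 72.7 FPKM (log2 change 0.89, limma adjusted p = 0.042), with groups apart. The call held in 1 of 6 fits with a library left out. Named after its values were seen, the D cyclin Ccnd1 stood at 46.6 ± 4.78 and 65.8 ± 4.91 FPKM (adjusted p = 0.051). The list's median log2 change was -0.08, equal to that of all tested genes at this rounding.

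Inhibitors of these kinases did not pass. Of 7, 6 were tested, and the most abundant, Cdkn1a (p21), stood at 101, 114 and 137 FPKM in control and 109, 111 and 113 FPKM in Znf750_cKO (log2 change -0.07, limma adjusted p = 0.81). Cdkn2b (p15), named after its values were seen, lay at 5.21, 6.93 and 6.50 FPKM against 2.94, 4.33 and 2.93 FPKM (adjusted p = 0.064). None of 15 E2F, DREAM and MuvB regulators passed, and their median log2 change was 0.12. Rbbp4, the most abundant, stood at 95.2 ± 5.53 and 81.9 ± 10.0 FPKM.

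Among targets of p53, 1 of 15 tested genes rose and 14 did not pass, where 1.11% of all tested genes rose. The median log2 change of the p53 list was 0.05. Pmaip1 (Noxa), which promotes apoptosis, stood at 13.5, 13.9 and 12.8 FPKM in control and rose to 28.1, 28.6 and 27.6 FPKM. Its log2 change was 1.01 (SE 0.10, limma adjusted p = 0.0024), and the call held whichever library was left out. Of 11 genes linked to quiescence or exit from the cycle 1 rose, again beside 1.11%, with a median of 0.14. That gene, Mxd4, a partner of MAX that opposes Myc, rose from 17.6 ± 0.93 to 28.4 ± 2.85 FPKM (adjusted p = 0.021), but this call held in 1 of 6 fits with a library left out.

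**Figure D4:**
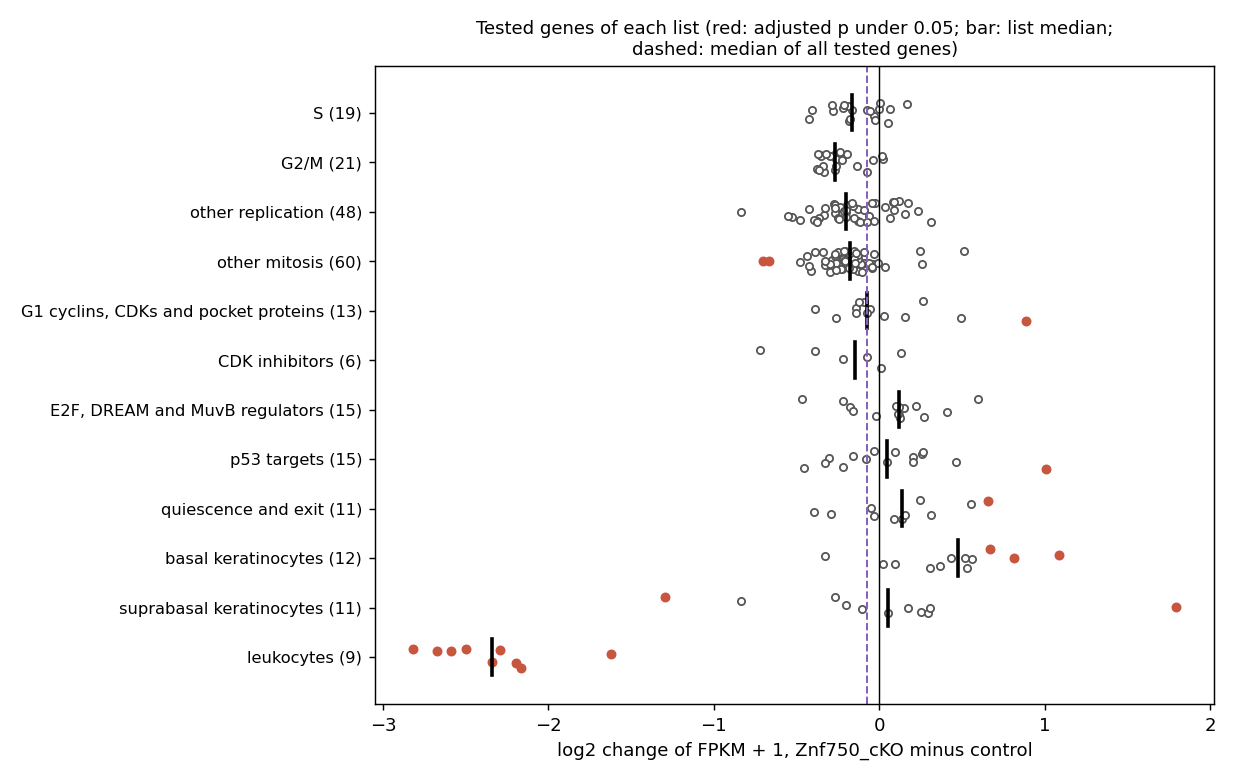
Each circle is the log2 change of a tested gene of the list named on the left, red where the limma adjusted p is under 0.05; the thick bar is the list's median and the dashed line the median of all tested genes. S, G2/M, other replication and other mitosis genes cluster left of 0 with 2 calls among them. Of 12 basal keratinocyte genes 11 lie right of 0, and all 9 tested leukocyte genes lie beyond -1.6.

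Markers of the cells in the suspension moved with the groups, and their part in the values above was not tested. Of 12 basal keratinocyte markers, from the layer that holds dividing cells, 3 rose and 9 did not pass. Over all tested genes 1.11% rose. The 3 markers were Itgb1, Itga3 and Itgb4, the last named after its values were seen, and 5 rose with the replicate block. The list had a median log2 change of 0.48, and its summed level ran from 14250 to 16006 FPKM in control and from 16272 to 17365 FPKM in Znf750_cKO. Krt5, Krt14 and Krt15 make up most of that sum, and none of them passed. Krt14 stood at 5268 ± 304 and 6799 ± 677 FPKM. Krt15, the only marker of the list with a negative log2 change (-0.33), stood at 2179 ± 158 and 1757 ± 358 FPKM. Both were named after their values were seen. The S, G2/M, other replication and other mitosis lists had negative medians. Itgb1 rose from 74.4 ± 9.16 to 131 ± 17.5 FPKM and Itga3 from 38.1 ± 8.28 to 81.8 ± 15.6 FPKM (limma adjusted p = 0.021 and 0.030), calls that held in 2 and 1 of 6 fits with a library left out. Of 11 suprabasal markers Ivl rose (log2 change 1.79, adjusted p = 0.022; in the blocked fit 0.058), Casp14 fell (log2 change -1.29, adjusted p = 0.025) and 9 did not pass. They passed in 2 and 3 of the 6.

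All 9 tested leukocyte markers of 12 fell, where 3.1% of all tested genes did. The filter itself favours a fall in genes that are high in control only. Lyz2, named after its values were seen, passed it through the control libraries alone. It stood at 7.95, 5.47 and 5.24 FPKM in control and 0.26, 0.43 and 0.54 FPKM in Znf750_cKO. With the replicate block 8 fell, and without control replicate 1 the count was 6. The summed level of the leukocyte list was 130 to 203 FPKM in control and 20.1 to 28.6 FPKM in Znf750_cKO. Tyrobp fell from 30.1 ± 4.05 to 3.86 ± 0.49 FPKM and Cd52 from 21.8 ± 3.02 to 3.01 ± 0.085 FPKM (limma adjusted p = 0.00021 for each). Cd207, a marker of mature Langerhans cells, was at 0 to 0.06 FPKM in all libraries. The T cell markers Cd3e and Trdc, named after their values were seen, were also too low to be tested and overlapped between groups. Cd3e stood at 0.42, 1.24 and 0.82 FPKM in control and 0.43, 0.22 and 1.36 FPKM in Znf750_cKO. Trdc stood at 0.32, 0.25 and 0.34 FPKM against 0.21, 0.11 and 0.41 FPKM. Of 9 tested hair follicle markers of 10, Krt27 and Krt71, keratins of the inner root sheath, fell (log2 changes -2.25 and -2.25, adjusted p = 0.0055 and 0.0087) and 7 did not pass. With a library left out, Krt27 passed in 3 of 6 fits and Krt71 in 2. The summed level of the follicle list ran from 70.3 to 79.2 FPKM in control and from 55.0 to 69.8 FPKM in Znf750_cKO. Its members did not move together, and the list's median log2 change was -0.13. Named after their values were seen, Krt25 had a log2 change of -1.59 and Shh, with groups apart and higher, one of 0.25. Krt25 also passed the filter through the control libraries alone. The log2 changes of Msx2, Krt35, Dlx3, Lef1 and Hoxc13 were 0.19, 0.03, -0.01, -0.13 and -0.14, with groups that overlapped.

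Other lists gave fewer calls. Of 3 tested erythroid genes of 6, 1 fell, where 3.1% of all tested genes did. It was Hba-a2, which went from 15.3 ± 4.56 to 3.59 ± 0.465 FPKM (limma adjusted p = 0.0055). Hbb-bs and Hba-a1, named after their values were seen, did not pass. Hbb-bs had a log2 change of -1.65 with groups apart (adjusted p = 0.089), and Hba-a1 one of -1.05 with groups that overlapped. None of 7 melanocyte, 5 tested fibroblast and 2 tested endothelial markers passed, with Dct, Sparc and Pecam1 as the most abundant (log2 changes 0.09, 0.06 and -0.16). None of 10 genes induced by tissue dissociation passed, yet the log2 change was positive for all 10 (median 0.77), and their sum was highest in Znf750_cKO replicate 3, at 1711 FPKM against 423 to 844 FPKM in the other libraries. Fos, the most abundant of them, stood at 78.1, 92.0 and 247 FPKM in control and 269, 189 and 558 FPKM in Znf750_cKO. Replicate 3 of the knockout was also the library with the most S and G2/M genes below all controls. A link between these observations was not tested. Without that library the median log2 change was -0.096 for S genes and -0.22 for G2/M genes, beside -0.082 for all tested genes. None of 9 mitochondrial genes passed, with a median of -0.14 and mt-Atp6 at 19352 ± 1635 and 17948 ± 1788 FPKM.

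**Figure D5:**
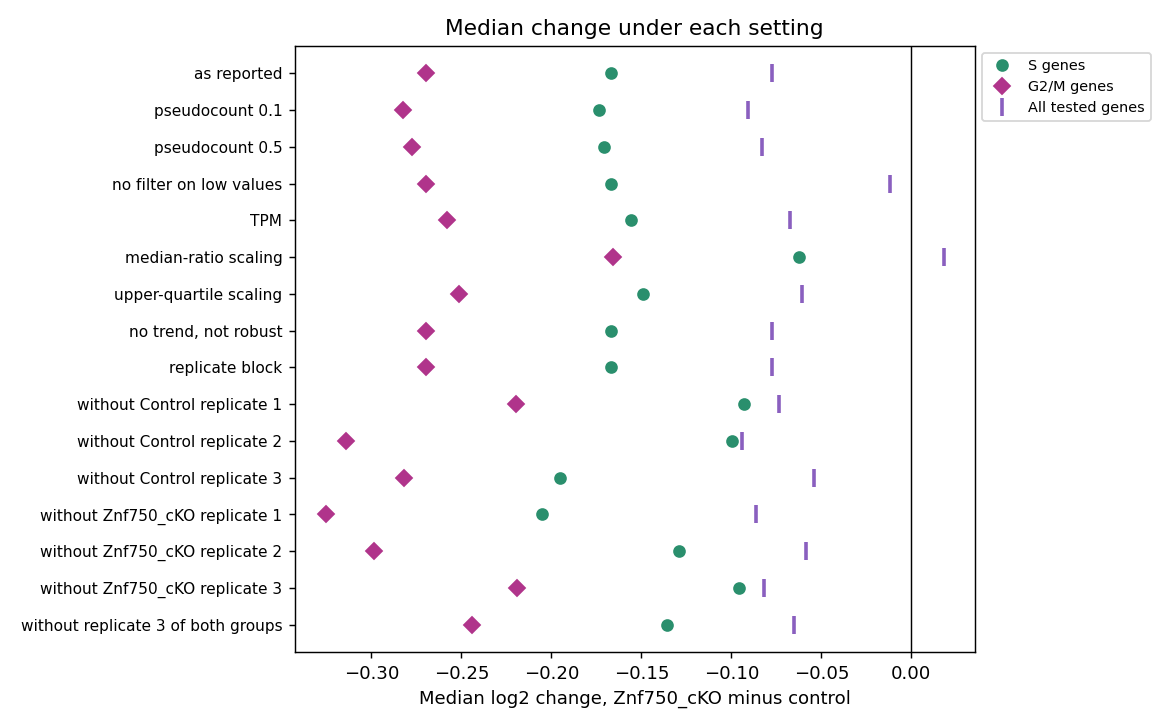
The median log2 change of the 19 S genes (circles), the 21 G2/M genes (diamonds) and all tested genes (bars) is drawn for the analysis as reported and each of 15 alternatives. The G2/M median stays between -0.33 and -0.17 and left of the all-gene median throughout, and the S median stays between -0.21 and -0.06, closest to the all-gene median without control replicate 2.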

How the data were processed

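Messenger RNA was measured in 3 control and 3 Znf750_cKO libraries of newborn mouse epidermis. The authors deposited 1 FPKM value per gene and library, per the file headers. RSEM 1.2.28 and STAR 2.5.2a are named in the submitters' processing notes, as are cutadapt 1.15 and the builds GRCm38 and mm10, without saying which step used which. Annotation release, filters and strand were not given in the sources used here. How reads that fit several genes were counted is not stated, so near-identical copies and genes with shared exons are uncertain.

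A symbol was found for 55141 of 55487 identifiers. Coordinates are those of GENCODE M21 (GRCm38), which holds 99.5% of the identifiers. The 13688 genes that reached 1 FPKM in 3 or more libraries were fitted in limma 3.58.1 (R 4.3.3, statmod 1.5.0) on log2(FPKM + 1), with trend, robust variances and group as the only term, and p-values were adjusted over all of them by Benjamini-Hochberg. The pseudocount of 1 understates changes of low genes. Intervals are 95%. The fit was checked on simulated data. Plots used Python 3.11.15 and matplotlib 3.10.9.

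Depth was estimated from genes with 1 transcript, where FPKM times transcript length less 99 bases lay within 0.1 of a whole read for 74.0% to 81.0% of low values per library, where chance gives 20%. It entered no test.

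The members and gene lists were chosen with earlier results of these data known. Named genes are Zfp750, in the S and G2/M lists any gene past the threshold, the 3 most abundant and the 3 highest and 3 lowest log2 changes, with the other members by role, and from each other list up to 2 called genes in each direction with the smallest p, or else the most abundant tested gene. Exceptions are said to be chosen after their values were seen.

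Replicate numbers 1 to 3 are shared by the groups. Deviations from group means correlated at 0.31, 0.17 and 0.48 across genes between libraries of like number, all over 0.1. Between libraries of unlike number the correlations ran from -0.39 to 0.24. The 0.24, of control replicate 1 with Znf750_cKO replicate 2, exceeded the 0.17 of the libraries numbered 2, so the pairing is uncertain. The main fit did not pair the libraries, and a fit blocked on replicate number was added as an alternative. What a shared number means is not labelled. Other alternatives were pseudocounts of 0.1 and 0.5, no filter, TPM, median-ratio and upper-quartile scaling, limma without trend and robust variances, each library left out, and replicate 3 of both groups left out.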

Additional observations from a re-analysis of the deposited data

How the results depend on the processing

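None of the 40 S and G2/M genes passed limma under any of the 15 alternatives. The smallest adjusted p of a member ran from 0.062 to 0.23 among S genes and from 0.069 to 0.26 among G2/M genes, and the replicate block changed no call of a member. Both list medians kept their sign, and with median-ratio scaling they were -0.062 for S and -0.17 for G2/M genes. Over all genes, 31 rose and 54 fell without a filter on low values, 248 rose and 265 fell with median-ratio scaling, and leaving replicate 3 out of both groups gave 64 higher and 162 lower. With the replicate block 256 fell. With 1 library left out, 30 to 100 genes rose and 62 to 302 fell. The cause of these shifts was not tested.

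Directions close to 0 turned. With median-ratio scaling the log2 change was 0.036 for Pcna, 0.074 for Tyms, 0.070 for Cdc45, 0.085 for Ccne2, 0.046 for Fen1, 0.069 for Cdk1, 0.032 for Aurkb and 0.035 for Cdkn1a. Without replicate 3 of both groups the log2 change was -0.040 for Ccne1, 0.085 for Ccne2, -0.10 for E2f1, 0.012 for Cdk1, -0.090 for Foxm1, 0.030 for Cdkn1a and -0.00077 for Dct. With TPM the log2 change was 0.011 for Ccne2. With upper-quartile scaling the log2 change was 0.014 for Ccne2. With 1 library left out it ran from -0.037 to 0.12 for Mcm7, -0.41 to 0.32 for Tyms, -0.090 to 0.018 for Cdc45, -0.052 to 0.19 for Ccne1, -0.083 to 0.092 for Ccne2, -0.077 to 0.11 for E2f1, -0.12 to 0.049 for Cdk1, -0.061 to 0.098 for Kif11, -0.059 to 0.15 for Foxm1, -0.17 to 0.042 for Cdkn1a, -0.089 to 0.34 for Dct, -0.054 to 0.13 for Sparc and -0.75 to 0.41 for Pecam1.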
